A study of Mus musculus with 2 samples.

Results

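A set of 10 genes of MHC class I antigen presentation was followed in mouse pancreatic tumours by droplet single-cell RNA sequencing of transcript 3′ ends. They were H2-K1, H2-D1, H2-T23, B2m, Tap1, Tap2, Tapbp, Psmb8, Psmb9 and Nlrc5, chosen by symbol for their role in the pathway, and all 10 were among the 32285 genes of the count matrices. The question was how these genes differed between tumour cells and tumour macrophages, and between the 2 libraries. The EL1 library came from EL1-Luc/EL1-Tag mice on the FVB/N strain, in which the elastase I promoter of pancreatic acinar cells drives SV40 large T antigen and a luciferase reporter. The WTg library came from EL1-Luc/EL1-Tag x CAG-Mettl3 mice, which carry the same transgenes and in addition Mettl3, the catalytic subunit of the m6A RNA methyltransferase, under the ubiquitous CAG promoter. Both libraries were made at 6 weeks of age. Tumours were digested with collagenase and DNase, red cells were lysed, and viability was read by flow cytometry. The gate that set which cells were loaded is not stated. How many animals gave each library, and of which sex, is not stated, and each group is 1 library, so no difference between the libraries has a replicate check and no p-value is given. The Mettl3 transgene was made in BL/6 mice, so strain background and transgene differ together and cannot be told apart.

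MHC class I molecules show peptides from inside the cell to CD8 T cells and to natural killer cells. A polymorphic heavy chain (H2-K1 or H2-D1) pairs with the invariant light chain beta-2-microglobulin (B2m). Its peptide is cut by the proteasome, pumped into the endoplasmic reticulum by the Tap1-Tap2 transporter and loaded with the help of tapasin (Tapbp). Psmb8 and Psmb9 are catalytic subunits of the immunoproteasome, the form that interferon induces, and Nlrc5 is the transactivator of class I genes. Almost every nucleated cell can present on class I, leukocytes carry high levels, and low levels on tumour cells are a known route of escape from T cells.

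After a filter that asked for 500 genes and 1000 UMIs or more, with no more than 20% of UMIs from mitochondrial genes, 1113 of 1621 EL1 barcodes and 905 of 1488 WTg barcodes were kept, with a median of 26543 and 34836 UMIs. A UMI (unique molecular identifier) marks 1 captured transcript. The libraries shared no kept barcode. Clustering that left out the 10 genes and their pathway lists gave 19 clusters. Of these, 13 clusters (1010 EL1 and 823 WTg cells) carried no set of markers of a non-epithelial cell type and are called tumour cells here, although malignancy itself was not tested. The labels call the cells epithelial, and the epithelial keratin Krt8 stood at 6303 and 6158 CPM (the sum of a gene's UMIs over the cells, scaled to the same total of all UMIs in every group of cells, so that 10 CPM are 0.001%) in the tumour cells of EL1 and WTg. Cluster 13, led by Lyz2, C1qb and Apoe, is called macrophage-like and held 28 EL1 and 40 WTg cells. Neutrophil-like, T or NK-like and B-like clusters together held 22 and 27 cells and are called other leukocytes. In all kept cells Mettl3 stood at 15.1 CPM in EL1 and 66.7 CPM in WTg. Intervals are 95% intervals for counting error only. They do not cover the spread between cells of a library or between animals.

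The loci of the genes bear on how their reads could be assigned. On GRCm38 (GENCODE M21) H2-K1 lies at chr17:33996017-34000347, H2-D1 at chr17:35262730-35267499 and H2-T23 at chr17:36029773-36032855. Tapbp (chr17:33915899-33929292), Psmb9 (chr17:34181987-34187764), Tap1 (chr17:34187553-34197225), Psmb8 (chr17:34197721-34201454) and Tap2 (chr17:34203527-34216321) lie on the same chromosome, within the MHC. B2m lies at chr2:122147686-122153083, outside it. Nlrc5 (chr8:94434356-94527272) is likewise outside the MHC. FVB/N carries the q haplotype of the MHC and C57BL/6 the b haplotype, which is also that of the reference genome, and which haplotype the WTg animals carried is not stated. Class I heavy chain genes are also close copies of each other. Among windows of 50 bases in the last 500 bases of each gene's longest transcript, 38.1% were shared with another gene for H2-T23, 9.53% for H2-D1 and 0.443% for H2-K1, and none for the other 7 genes. At 90 bases, 13.4% were shared for H2-T23 and none for the other 9 genes. Values of H2-T23 are therefore uncertain. How well reads of q alleles aligned to the b reference was not tested, and for the H2 genes a difference between the libraries cannot be told apart from one of allele. Comparisons of cell types within a library count the same library's alleles on both sides.

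The promoters of the 2 classical heavy chain genes hold the class I enhancer, and that of H2-T23 is shown to set beside it. Windows of 250 bases before the RefSeq transcript start (GRCm38.p6) were found for 8 of the 10 genes, not for Tap2 or Nlrc5. They were searched on both strands for a kappa B motif (GGGGATTCC), an interferon response core (GAANNGAAA), a CRE-like motif (TGACGC) and a CCAAT box (CCAAT). Stretches of 30 bases are given on the gene's strand with motif matches in capitals, the first pair from the kappa B match to the interferon response core (which matches on the other strand), the second pair from the CRE-like match to the CCAAT box on the other strand, and the last stretch around the CCAAT box.
H2-K1, chr17:34000429-34000458, minus strand: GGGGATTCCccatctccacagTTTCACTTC
H2-D1, chr17:35262923-35262952, plus strand: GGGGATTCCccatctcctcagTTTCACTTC
H2-K1, chr17:34000359-34000388, minus strand: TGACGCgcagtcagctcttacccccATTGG
H2-D1, chr17:35262993-35263022, plus strand: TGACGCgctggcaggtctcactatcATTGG
H2-T23, chr17:36032736-36032765, minus strand: gttttctaaaagCCAATcagcgacgcagag
The windows of H2-K1 and H2-D1 held all 4 motifs in the same order, and their first stretches differed at 1 of 30 bases and their second at 7 of 30. H2-T23 held the CCAAT box alone among the 4, as did B2m, Tap1, Tapbp and Psmb9, and Psmb8 held none of them. Over all 32851 windows of the same length the kappa B motif was found in 0.213%, the interferon response core in 6.31%, the CRE-like motif in 6.12% and the CCAAT box in 33.8%. None of these motifs overlapped another in the windows shown. For H2-D1 and H2-T23 the GENCODE gene begins upstream of the RefSeq start, so their stretches lie inside the GENCODE gene. The same holds for the whole windows of Tapbp, Psmb8 and Psmb9, which are not shown. A match is a description of the reference letters and not a binding site shown by these data.

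Macrophages held more RNA of the class I pathway than tumour cells, in both libraries and at nearly every step. Of the 10 genes, 8 were at least 2-fold higher (1 on the log2 scale) in EL1 and 9 in WTg, and none was lower by that much. Among all genes, 18.1% were higher by that much and 19% lower in EL1, and 20.4% were higher and 22% lower in WTg. Among genes for which equal levels would give at least 3 UMIs on each side, these shares were 13.5% and 28% in EL1, and 17.6% and 29.1% in WTg. The median log2 ratio of the 10 genes was 2.50 in EL1 and 2.84 in WTg, and that of all genes -0.14 and -0.09. A cluster was compared with others here, but none of the 10 genes had been used to form the clusters.

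**Figure D1:**
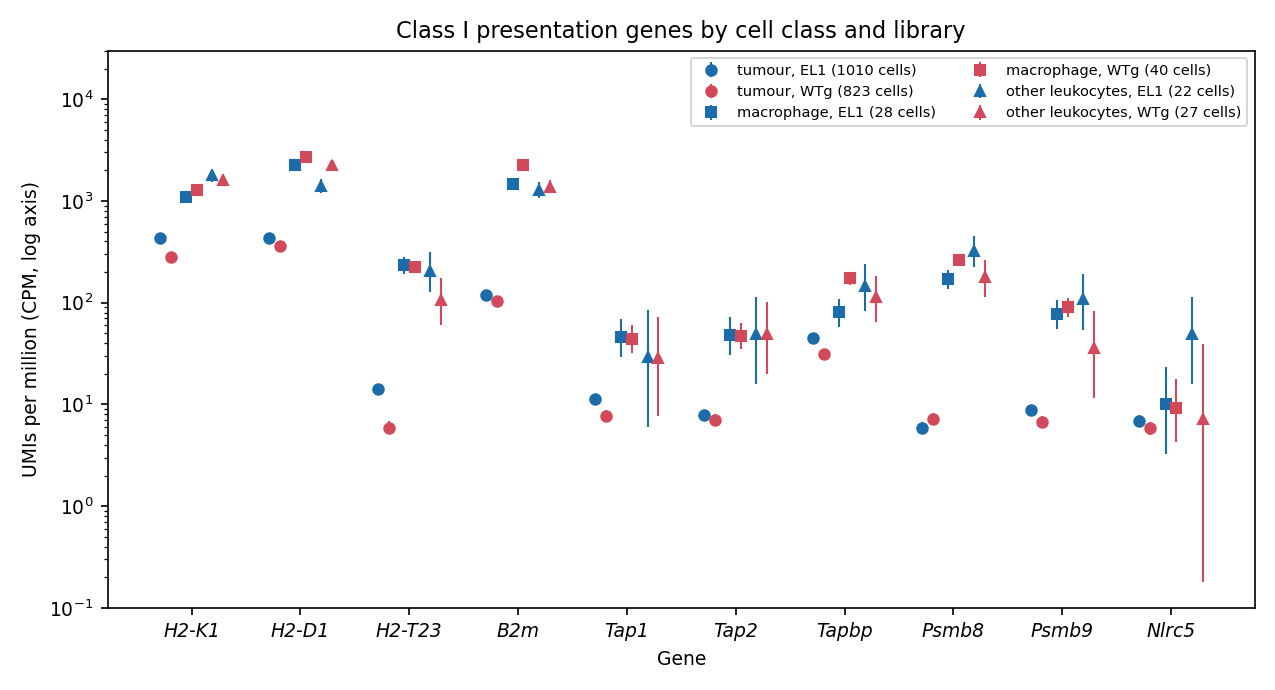
Levels of the 10 class I presentation genes in CPM (log axis) in tumour cells (circles), macrophages (squares) and other leukocytes (triangles) of the EL1 library (blue) and the WTg library (red), with 95% counting intervals as bars. Tumour cells are lowest for every gene in each library, by more than 10-fold for B2m, H2-T23 and Psmb8, while Nlrc5 lies between 5.82 and 10.0 CPM in tumour cells and macrophages of both libraries.

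The heavy chain H2-K1 stood at 430 CPM in EL1 tumour cells and 281 in WTg tumour cells, against 1102 and 1269 CPM in the macrophages. That was 2.56-fold higher in macrophages of EL1 (interval 2.35 to 2.79) and 4.51-fold in WTg (4.25 to 4.79). H2-D1, the second classical heavy chain, stood at 434 and 357 CPM in tumour cells and at 2267 and 2696 CPM in macrophages. The step between the cell types was larger for H2-D1 than for H2-K1 in each library, at 5.23-fold (4.92 to 5.55) and 7.55-fold (7.23 to 7.88). H2-T23 encodes the nonclassical heavy chain Qa-1, which shows peptides from the leader sequences of other class I chains to an inhibitory receptor of natural killer cells. It stood at 14.3 and 5.92 CPM in tumour cells and at 233 and 223 CPM in macrophages, 16.2-fold (13.2 to 19.9) and 37.6-fold (30.8 to 46.0) higher.

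The light chain separated the cell types more than the classical heavy chains did. B2m stood at 119 CPM in EL1 and 103 CPM in WTg tumour cells, and at 1471 and 2281 CPM in macrophages, 12.4-fold (11.5 to 13.4) and 22.1-fold (20.9 to 23.3) higher. Counted per B2m UMI, EL1 tumour cells held 3.63 UMIs of H2-K1 (3.51 to 3.75) and WTg tumour cells 2.73 (2.62 to 2.84), against 0.75 (0.67 to 0.84) and 0.56 (0.52 to 0.60) in macrophages and 1.39 (1.10 to 1.75) and 1.17 (0.96 to 1.42) in other leukocytes. H2-D1 gave 3.66 and 3.46 UMIs per B2m UMI in tumour cells and 1.54 and 1.18 in macrophages. The same ratio was thus higher in tumour cells than in macrophages for both heavy chains and both libraries, with intervals that did not overlap. These are ratios of 3′ UMIs, which were compared between cells and do not give the ratio of molecules.

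For peptide supply, both chains of the transporter were higher in macrophages. Tap1 stood at 11.4 and 7.76 CPM in tumour cells of EL1 and WTg and at 46.1 and 44.3 CPM in macrophages, 4.07-fold (2.55 to 6.19) and 5.71-fold (4.03 to 7.92) higher. Tap2 stood at 7.84 and 7.0 CPM in tumour cells and at 48.2 and 47.4 CPM in macrophages, 6.14-fold and 6.78-fold higher. Tapbp, the bridge between transporter and heavy chain, showed a smaller step in EL1. It stood at 45.3 and 31.3 CPM in tumour cells and at 80.3 and 173 CPM in macrophages, 1.77-fold (1.26 to 2.42) and 5.54-fold (4.67 to 6.53) higher. Tapbp overlaps Zbtb22 on the same strand, so reads in that overlap cannot be assigned with certainty.

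Nlrc5, the transactivator of the class I genes, was the exception to the pattern. It stood at 6.93 CPM in EL1 and 5.82 CPM in WTg tumour cells (251 and 183 UMIs), and at 10.0 and 9.28 CPM in macrophages, from 5 and 9 UMIs. The ratios of macrophages over tumour cells were 1.45 (0.47 to 3.42) and 1.59 (0.72 to 3.09), and both intervals include 1. Macrophage levels up to 3.42-fold higher in EL1 and 3.09-fold higher in WTg lie within these intervals.

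**Figure D2:**
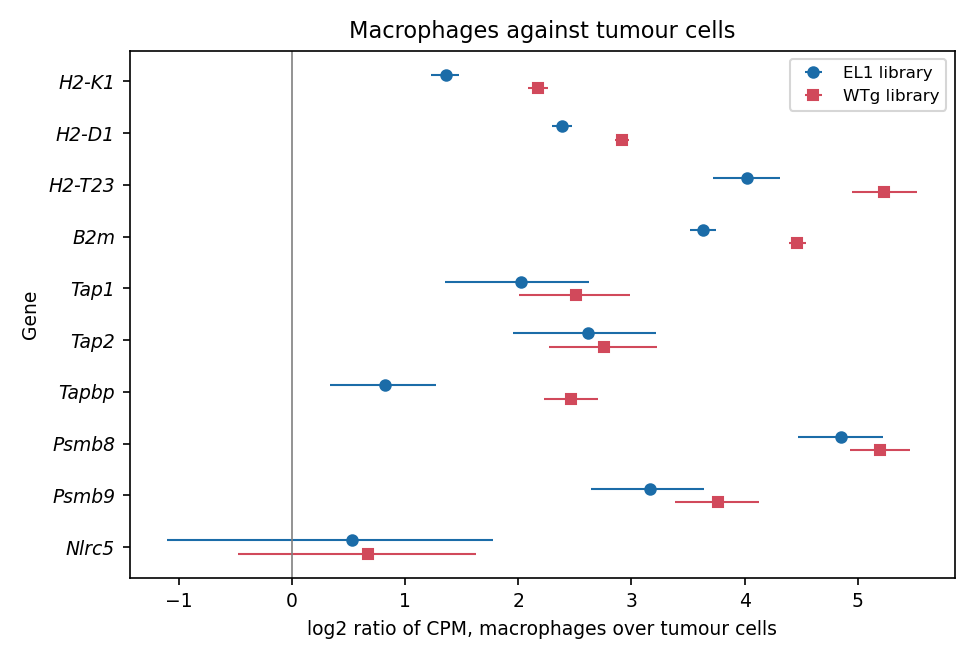
Log2 ratio of CPM in macrophages over tumour cells for each gene, in the EL1 library (blue circles) and the WTg library (red squares), with 95% counting intervals. Every gene but Nlrc5 lies right of 0 with its whole interval in both libraries, from 0.82 for Tapbp in EL1 to 5.23 for H2-T23 in WTg.

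Each catalytic subunit of the immunoproteasome replaces a constitutive counterpart, so its UMIs can also be read as a share of the pair. Psmb8 stood at 5.91 and 7.16 CPM in tumour cells of EL1 and WTg and at 171 and 263 CPM in macrophages, 28.9-fold (22.2 to 37.3) and 36.7-fold (30.6 to 44.1) higher. Psmb9 stood at 8.76 and 6.68 CPM in tumour cells and at 78.3 and 90.7 CPM in macrophages, 8.94-fold and 13.6-fold higher. Of the UMIs of Psmb8 and its counterpart Psmb5 together, Psmb8 held 3.44% (3.0 to 3.92) in EL1 tumour cells and 4.70% (4.12 to 5.34) in WTg tumour cells, and 50.3% (42.5 to 58.1) and 60.7% (55.9 to 65.4) in macrophages. Psmb9 held 3.74% and 3.16% of its pair with Psmb6 in tumour cells and 23.9% and 19.9% in macrophages. In tumour cells the UMIs of both pairs thus came mainly from the constitutive gene. These are shares of 3′ UMIs and do not give the make-up of the proteasome. The subunit of the third pair, Psmb10 against Psmb7, is not one of the 10 genes and had a larger share in tumour cells, 11.9% (11 to 12.9) in EL1 and 18.2% (17 to 19.5) in WTg, against 48.0% and 45.9% in macrophages. In WTg that share was highest in tumour cluster 8, led by the acinar enzyme genes Ctrl and Cela3b, at 41.5% (37.6 to 45.6), where Psmb8 held 4.63% (3.07 to 6.67) of its own pair. The other subunits of the proteasome core gave no gene past 2-fold among 11 between macrophages and tumour cells in either library.

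**Figure D3:**
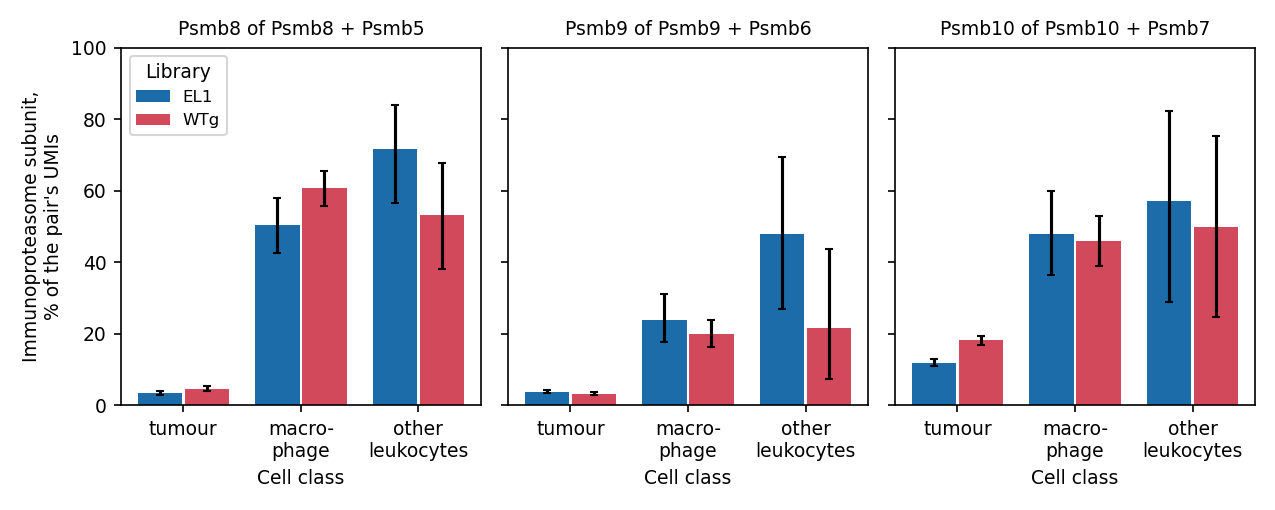
Share of an immunoproteasome subunit in the UMIs of its pair (percent) for Psmb8 with Psmb5, Psmb9 with Psmb6 and Psmb10 with Psmb7, by cell class, in EL1 (blue) and WTg (red) libraries, with 95% exact binomial intervals. Tumour cells hold under 5% for Psmb8 and Psmb9 and up to 18.2% for Psmb10, while macrophages hold 19.9% to 60.7%.

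Other leukocytes also held more class I RNA than tumour cells, on far fewer UMIs (22 and 27 cells). All 10 genes were at least 2-fold higher there in EL1 and 9 of 10 in WTg, where 19.3% and 18.9% of all genes were higher by that much and 10.4% and 12.3% lower. None of the 10 was lower by that much. Among genes for which equal levels would give at least 3 UMIs on each side, 11.4% were higher and 29.1% lower in EL1, and 12.1% and 30.8% in WTg. The counting interval included 0 for Tap1 in both libraries (3 and 4 UMIs in these leukocytes) and for Nlrc5 in WTg (1 UMI). H2-K1 was higher in other leukocytes (1789 and 1621 CPM) than in macrophages, and B2m stood at 1291 and 1386 CPM. Psmb8 held 71.7% (56.5 to 84.0) and 53.2% (38.1 to 67.9) of its pair with Psmb5.

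At equal depth per cell, 9 of the 10 genes were seen in a larger share of macrophages than of tumour cells in EL1 and all 10 in WTg. Nlrc5 was the exception, seen in 1.45% of EL1 tumour cells and in 0 of 25 macrophages (exact interval up to 13.7%). The order of Tap1 in EL1 rested on 1 macrophage (4%, 0.10 to 20.4), against 2.38% of tumour cells. For Tap1, Psmb9 and Nlrc5 in WTg it rested on 2 of 35 macrophages each. At 1000 UMIs per cell Tap1 was seen in 0 of 28 EL1 macrophages and in 1.49% of tumour cells. Nlrc5 was then seen in 0 of 40 WTg macrophages and in 1.46% of tumour cells. With each cell thinned to 2000 UMIs, H2-K1 was seen in 51.1% of 965 EL1 and 39.7% of 763 WTg tumour cells, with 45 and 60 shallower cells left out, and in 80.0% of 25 and 97.1% of 35 macrophages. B2m was seen in 16.1% and 14.8% of tumour cells and in 92.0% and 94.3% of macrophages. Psmb8 was seen in 0.52% and 0.92% of tumour cells, and in 24% and 40.0% of macrophages. Tyrobp, a leukocyte gene that tumour cells should lack, was seen in 0.10% and 0.26% of tumour cells, which were 1 and 2 cells against 5 and 7 with Psmb8. In other leukocytes H2-K1 was seen in 68.2% of 22 and 80.0% of 25 cells, shares below those of the macrophages although its CPM were higher. Without thinning, H2-K1 was seen in 95.8% and 90.5% of tumour cells, B2m in 70.9% and 71.7% and Psmb8 in 15% and 19.1%, against 1.09% and 2.07% for Tyrobp. RNA of the other cell class differed by gene. In macrophages Krt8 stood at 2.61% of its tumour level in EL1 and 0.636% in WTg, and Epcam at 0.387% in WTg, with no UMI in EL1 (which allows up to 1.01%). In tumour cells Tyrobp stood at 0.0155% and 0.0220% of its macrophage level and C1qa at 0.566% and 2.25%.

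In tumour cells, the WTg library held less class I RNA than the EL1 library for most of the genes. Of the 10, 7 were lower in WTg with the whole counting interval below 0, none was higher in that sense, and 3 intervals (Tap2, Psmb8, Nlrc5) included 0. The share of all genes with such an interval was not counted. Past 2-fold, 1 of 10 was lower and 0 higher, where 8.21% of all genes were lower and 7.19% higher. The median log2 ratio of WTg over EL1 was -0.34 for the 10 genes and -0.18 for all genes tested. All genes together were thus also shifted to lower values in WTg. The part of that shift in the values of the 10 genes was not tested. With no replicate library these are differences between 2 libraries.

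H2-K1 stood at 430 CPM in EL1 against 281 in WTg (log2 ratio -0.61, interval -0.65 to -0.57) and H2-D1 at 434 and 357 CPM (-0.28, -0.31 to -0.24). H2-T23 showed the largest difference of the 10, at 14.3 and 5.92 CPM (-1.28, -1.53 to -1.03). B2m differed least among the genes beyond their intervals, at 119 and 103 CPM (-0.20, -0.27 to -0.13). Tap1 stood at 11.4 and 7.76 CPM (-0.55, -0.78 to -0.32), Tapbp at 45.3 and 31.3 CPM (-0.54, -0.65 to -0.42) and Psmb9 at 8.76 and 6.68 CPM (-0.39, -0.65 to -0.13). Psmb8 stood the other way, at 5.91 and 7.16 CPM, with an interval that reached 0 (0.28, 0.00 to 0.55). Tap2 gave -0.16 (-0.43 to 0.09) and Nlrc5 -0.25 (-0.54 to 0.03). Under another scaling (trimmed mean of M values) each value rose by 0.15, which left B2m at -0.05. The intervals of B2m and Psmb9 ended at -0.13 and that of Psmb8 began at 0.00, all nearer to 0 than this shift. Which genes lie beyond their intervals thus depends on the scaling.

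**Figure D4:**
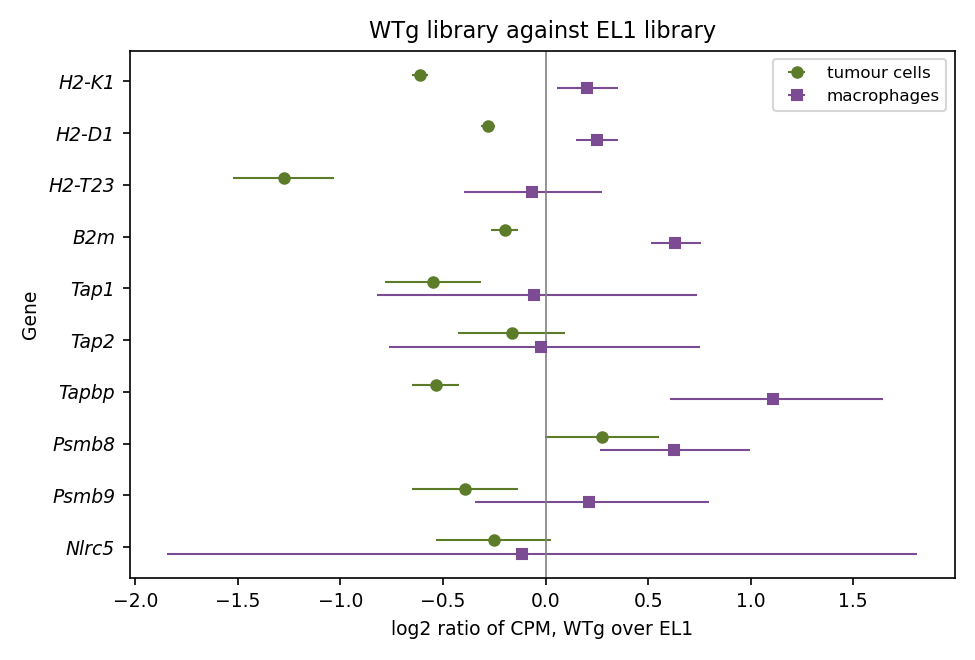
Log2 ratio of CPM in the WTg library over the EL1 library for each gene, in tumour cells (green circles) and macrophages (purple squares), with 95% counting intervals. H2-K1, H2-D1, B2m and Tapbp lie left of 0 in tumour cells and right of 0 in macrophages, and H2-T23 reaches -1.28 in tumour cells against -0.06 in macrophages.

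The tumour cells of the libraries were of different kinds, and that moved with these values. Of 1833 tumour cells, 70.3% sat in 8 clusters that drew at least 90% of their cells from 1 library. Leaving out cluster 10 or cluster 0 made some of the differences between the libraries smaller. How far the mix of clusters accounts for the differences was not tested. Cluster 10, led by the gastric proton pump genes Atp4b and Atp4a, held 77 cells, all from EL1, with 949 CPM of H2-K1 (917 to 983), 622 CPM of H2-D1 and 293 CPM of B2m (275 to 312), the highest of each in any tumour cluster. Without cluster 10 the log2 ratio of H2-K1 was -0.42 and that of B2m turned to 0.035. Cluster 0, led by Resp18, Penk and Chga and neuroendocrine-like, held 249 EL1 and 10 WTg cells, with 32.7 CPM of H2-T23 (28.8 to 37.0) and 73.3 CPM of Tapbp (67.4 to 79.5) in EL1. Without cluster 0 the log2 ratio of H2-T23 was -0.68 and that of Tapbp -0.28. These clusters were chosen after their values were seen. The lowest H2-K1 (155 CPM, 144 to 168) and H2-D1 (209 CPM) stood in the WTg cells of cluster 8, the acinar-like cells, so that H2-K1 spanned 6.11-fold (5.61 to 6.65) and H2-D1 2.98-fold across 17 groups of tumour cells (a cluster in 1 library, at least 20 cells).

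The genes did not move as a block across the tumour clusters. Cluster 10, highest for H2-K1 and B2m, held 1.79 CPM of H2-T23 from 6 UMIs (0.66 to 3.89), while cluster 0, highest for Tapbp, held 90.4 CPM of B2m (83.9 to 97.4), which is near the median of the 17 groups (91.6). Psmb9 was also highest in cluster 10, at 22 CPM (17.3 to 27.7). Psmb8 ranged from 1.76 CPM in EL1 cells of cluster 3 to 16.2 CPM in WTg cells of cluster 11. H2-K1 per B2m UMI was 5.52 (5.09 to 5.99) in cluster 0 and 3.24 (3.02 to 3.48) in cluster 10. Without clusters 2 and 9, whose cells had a median of 2624 and 3448 UMIs, B2m spanned 4.50-fold (3.95 to 5.14), from 65.1 CPM in cluster 5 to cluster 10.

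**Figure D5:**
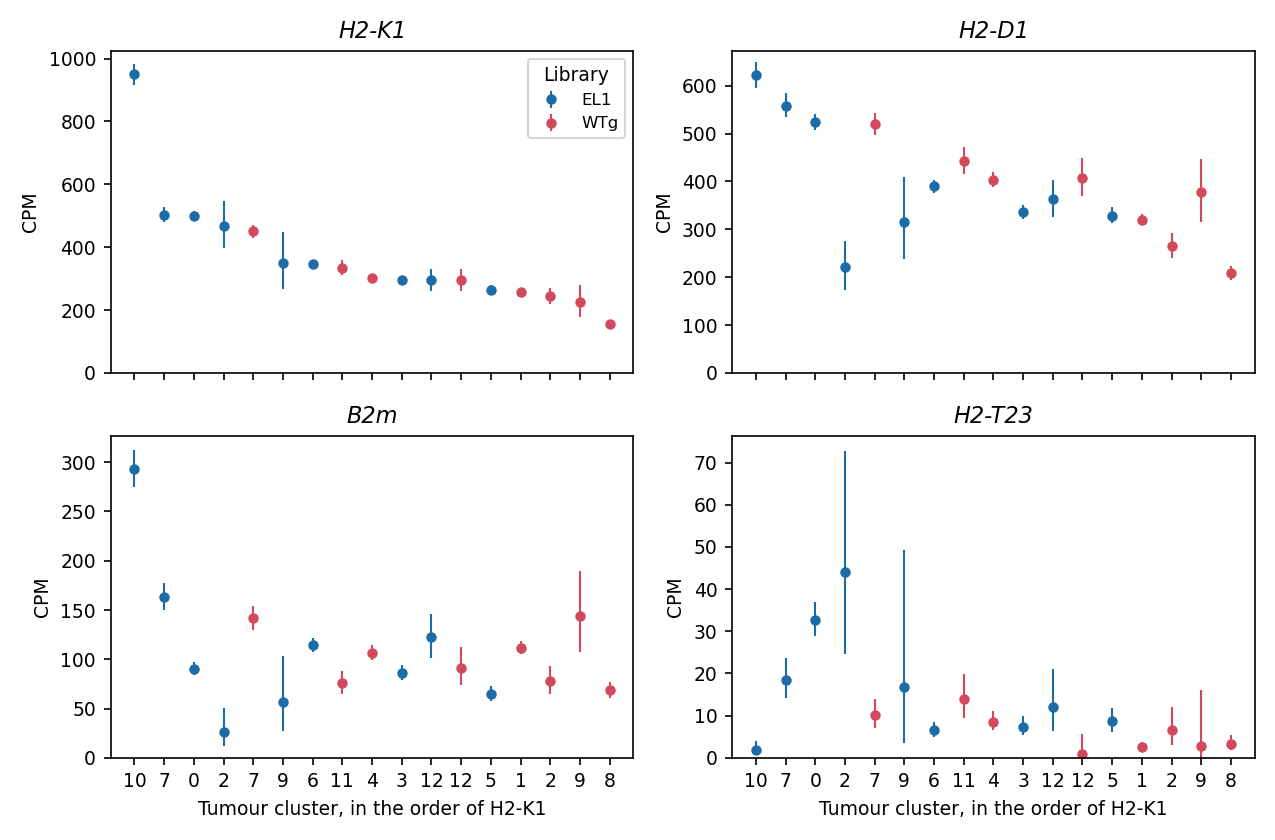
CPM of H2-K1, H2-D1, B2m and H2-T23 in the 17 groups of tumour cells, each a cluster in the EL1 library (blue) or the WTg library (red), ordered by H2-K1, with 95% counting intervals. Cluster 10 is highest for H2-K1 (949 CPM), H2-D1 and B2m but at 1.79 CPM for H2-T23, which stands at 32.7 CPM in cluster 0, and the widest bars belong to the shallow clusters 2 and 9.

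Within the 4 tumour clusters with at least 20 cells of each library, the log2 ratio of H2-K1 ran from -0.93 to 0.00, and B2m had no common direction. Cluster 7, led by histone and mitotic genes (70 EL1 and 64 WTg cells), held 504 and 450 CPM of H2-K1 (log2 ratio -0.16, -0.26 to -0.07), 163 and 142 CPM of B2m (-0.21, -0.38 to -0.03) and 18.5 and 10.1 CPM of H2-T23 (-0.87, -1.49 to -0.27). Cluster 12, led by immediate early genes such as Fos (37 and 31 cells), held 295 and 294 CPM of H2-K1 (0.00, -0.24 to 0.24) and 363 and 408 CPM of H2-D1 (0.17, -0.04 to 0.38). H2-T23 there had 12 and 1 UMIs. Cluster 2 (67 EL1 and 119 WTg cells), whose cells were shallow, gave -0.93 for H2-K1 (-1.20 to -0.66), -2.75 for H2-T23 (15 and 10 UMIs) and 1.56 for B2m (9 and 119 UMIs, 0.59 to 2.73). The shallow cluster 9 (27 and 59 cells) gave -0.64 for H2-K1 (-1.14 to -0.13) and 1.36 for B2m (10 and 50 UMIs, 0.36 to 2.50), with 3 and 1 UMIs of H2-T23. The direction for B2m in these shallow clusters was thus opposite to that in clusters 7 and 12. Over the neuroendocrine-like clusters 0, 4 and 11 together (260 and 223 cells, in different clusters for the libraries) H2-K1 stood at 487 and 309 CPM (-0.65), H2-T23 at 33.9 and 10.0 CPM (-1.75), Tapbp at 72.6 and 37.4 CPM (-0.96) and B2m at 88.3 and 97.0 CPM (0.14, -0.01 to 0.28). With the whole counting interval below 0, H2-T23 was thus lower in WTg in the 4 of these 5 comparisons with a ratio for it, and H2-K1 in 4 of 5, all but cluster 12. Macrophage RNA in the tumour cells also differed between the libraries. Of 13 macrophage markers 12 were detected in EL1 and 13 in WTg tumour cells, at a summed 101 and 189 CPM, mostly Apoe and C1qa, against 80867 and 66278 CPM in the macrophages. In the tumour cells without a UMI of 6 macrophage genes (C1qa among them, but not Apoe) H2-K1 gave -0.74 and B2m -0.64. These were 621 of 1010 EL1 and 318 of 823 WTg cells. A filter on 0 UMIs also favours shallow cells and can change the mix of clusters. The part of macrophage RNA in these values was not tested.

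In macrophages the WTg library held more of several class I genes, the opposite of the tumour cells. Of the 10 genes, 5 were higher in WTg with the whole counting interval above 0 and none was lower in that sense. The share of all genes with such an interval was not counted. Past 2-fold 1 of 10 was higher and 0 lower, where 7.18% of all genes were higher and 8.33% lower. The median log2 ratio was 0.21 for the 10 genes and -0.05 for all genes tested. B2m stood at 1471 CPM in EL1 macrophages and at 2281 in WTg (0.63, 0.51 to 0.76), Psmb8 at 171 and 263 CPM (0.62, 0.26 to 1.0) and Tapbp at 80.3 and 173 CPM from 40 and 168 UMIs (1.11, 0.60 to 1.64). The classical heavy chains differed less, H2-K1 by 0.20 (0.06 to 0.35) and H2-D1 by 0.25 (0.15 to 0.35). H2-T23, Tap1, Tap2, Psmb9 and Nlrc5 gave values from -0.11 to 0.21 with intervals that included 0. The UMIs were unevenly spread over cells, and the cell with the most held 18.8% of B2m UMIs in EL1 and 11.5% in WTg. With equal weight for each cell H2-K1 turned to -0.12, outside its counting interval. Its direction in the 28 and 40 macrophages thus depends on how cells are weighted. Red cell genes stood at 895 CPM in EL1 and 7.21 CPM in WTg macrophages, and their part in these values was not tested.

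Values over all kept cells combine the cell classes, whose shares also differed between the libraries. Macrophages held 498376 of 37961287 UMIs in EL1 and 970205 of 33007683 in WTg. B2m gave a log2 ratio of 0.38 (0.33 to 0.44) and Psmb8 0.87 (0.67 to 1.07), while H2-K1 gave -0.44 (-0.48 to -0.41), H2-T23 -0.43, Tap1 -0.39 and Tapbp -0.31. None of the 10 genes passed 2-fold in either direction, where 10.1% of all genes were higher and 6.9% lower. B2m was thus higher in WTg when all cells were counted and lower when tumour cells were counted. It had 5354 and 6077 UMIs in all cells, of which 4291 and 3244 lay in tumour cells and 733 and 2213 in macrophages. Psmb8 had 335 and 531 UMIs in all cells, of which 85 and 255 lay in macrophages.

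Other genes of the pathway were read from lists of relatives, partners and regulators, with a gene counted where it had enough UMIs. Of all genes in tumour cells, 8.21% were at least 2-fold lower in WTg and 7.19% higher. Among 13 other class I heavy chain genes in tumour cells, 4 were at least 2-fold lower in WTg and 1 higher (H2-Q1, on 2 and 11 UMIs), with a median of -0.92. H2-Q7 stood at 26.8 CPM in EL1 against 9.83 in WTg (-1.45), H2-Q4 at 47.4 and 25.1 CPM (-0.92) and H2-T22 at 17 and 8.56 CPM (-0.99). The number and sequence of the Q and T genes vary between mouse strains, and these ratios carry the same uncertainty of allele as H2-T23. None of 18 loading and processing partners passed 2-fold in tumour cells (median 0.02), with the chaperone gene Calr at -0.24, the peptide trimming enzyme gene Erap1 at 0.00, Tapbpl at -0.60 and Psmb10 at 0.58. Among 53 neighbours of these genes in the MHC region that are not part of class I presentation, 1 was higher and 2 lower, with a median of -0.22.

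For WTg over EL1, 16 of 22 interferon response genes lay below 0 in tumour cells, and 17 of 21 above 0 in macrophages. In tumour cells 17 of 21 regulators and 40 of 53 neighbours in the MHC region also lay below 0. So did 9 of 11 proteasome core genes and 9 of 18 loading and processing partners. Above 0 in macrophages were 6 of 20 regulators, 15 of 46 neighbours, 10 of 11 core genes and 13 of 18 partners. The medians of the regulators were -0.19 and -0.40, and those of all genes -0.18 and -0.05. The share of all genes on each side of 0 was not counted. Both medians of all genes lay below 0, so most genes did too, and these counts are not a trait of the lists alone. In tumour cells 1 of 21 regulators was at least 2-fold lower in WTg (Rfxank, -1.05) and none was higher. Of all genes there, 8.21% were lower by that much and 7.19% higher. The class I regulators Irf1 (-0.11, -0.26 to 0.05) and Rfx5 (-0.25, -0.59 to 0.08) differed little, and Jak2 stood at 23.6 and 42.8 CPM (0.86). Of 22 interferon response genes 2 were higher and 2 lower in WTg tumour cells (median -0.37), Irgm2 at 5.88 and 1.81 CPM (-1.70) and Gbp3 with 4 and 11 UMIs (1.66, -0.09 to 3.77) at the ends. In macrophages 11 of 21 interferon response genes were at least 2-fold higher in WTg and 0 lower (median 1.26). Of all genes there, 7.18% were higher by that much and 8.33% lower. The 11 included Ifit2 with 1 and 25 UMIs (3.68, 1.07 to 9.04), Gbp2 with 6 and 60 UMIs (2.36, 1.15 to 3.86) and Isg15 with 8 and 50 UMIs (1.68, 0.59 to 2.97). These genes had few UMIs in EL1. A gene could be counted on its WTg UMIs alone, so the counts in macrophages favour genes that are high in WTg. How these UMIs were spread over the cells is not given here.

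Most class II genes, which present peptides from outside the cell, differed more between macrophages of the libraries than the 10 class I genes did. Of 7 class II genes 6 were at least 2-fold higher in WTg and 0 lower (median 4.23), where 7.18% of all genes were higher and 8.33% lower. Cd74, the invariant chain, stood at 203 CPM in EL1 against 3794 in WTg (4.23, 3.94 to 4.53), and H2-Aa at 20.1 and 1681 CPM. These UMIs came from part of the cells. Cd74 exceeded 10 UMIs in 2 of 28 EL1 and 16 of 40 WTg macrophages, and the 3 cells with the most held 97.0% and 57.1% of its UMIs. In tumour cells Cd74 stood at 0.17 and 1.05 CPM.

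Levels of the 10 genes were also set against each other over 20 groups of cells (a cluster in 1 library, at least 20 cells), of which 17 were tumour cells. The other groups were the macrophages of each library and the EL1 cells of cluster 14, which carried mixed stromal and epithelial markers. These correlations are a description over groups that share 2 libraries and differ in depth. Over all 20 groups 38 of 45 pairs of genes had a Pearson r of at least 0.5, with a median of 0.77, the highest for H2-D1 and B2m (0.94) and the lowest for B2m and Nlrc5 (0.01). Over the 17 tumour groups 11 of 45 pairs did, with a median of 0.32, and H2-T23 and B2m gave -0.52. Leaving out the 3 groups that were not tumour cells thus lowered the likeness of the genes. The 5 genes most like the mean of the 10 over the 20 groups were Sgpl1 (0.98), Psap (0.98), Pld3 (0.97), Ptpre (0.97) and Arrb2 (0.97). None of these 5 was among the 5 most alike over the tumour groups alone, which were led by Nptn (0.92).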

How the data were processed

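The authors deposited counts of UMIs per gene and barcode, made with Cell Ranger (6.0.2 in the matrix headers) on GRCm38, and their notes also name R 4.1 and Seurat 4.0.5. The annotation and the counting of intronic reads are not given in the sources used here. The dense tables deposited beside the matrices held the same values for the 10 genes. Counts were summed per library and cell class and divided by the class total, with exact Poisson, conditional binomial and Clopper-Pearson intervals. For the lists and for all genes, a gene entered a ratio with at least 10 UMIs over both sides. Each of the 10 genes had a ratio unless both sides held 3 UMIs or fewer. A side at 0 was set to 3 UMIs. Barcodes were clustered with scanpy 1.11.5 and leidenalg 0.10.2 (counts scaled to 10000, 2000 variable genes, 30 components, 15 neighbours, resolution 1) without the 10 genes, their lists, Mettl3, Plk1 and cell cycle genes. A cluster was named from at least 3 raised markers. Scrublet marked 4 doublets in each library, which were kept. Levels for correlations were log2(CPM + 10). The 10 genes, the lists and the naming rules were chosen with earlier results of these data known. The text names the genes with the highest and lowest ratio of a list, and others for their role or after their values were seen (Calr, Erap1, Psmb10, H2-Q4, H2-T22, Irf1, Rfx5, Gbp2, Isg15, Cd74, H2-Aa). Depth was 37961287 UMIs in kept EL1 cells and 33007683 in WTg, of which tumour cells held 36205877 and 31443423 and macrophages 498376 and 970205, so that 3 UMIs are 0.0790 and 0.0909 CPM in all kept cells. H2-T10, Mx1 and Hsd17b8 of the lists were not analysed here. Another filter, clustering, scaling and weighting, other sets of tumour cells and a minimum of 50 UMIs were tried. Some items are not reported here.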

Additional observations from a re-analysis of the deposited data

Results flagged for a closer look

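For 4 of the 10 genes the libraries differed in opposite directions in the 2 cell types, beyond the counting interval in each. On the log2 scale WTg over EL1 gave -0.61 in tumour cells and 0.20 in macrophages for H2-K1, -0.28 and 0.25 for H2-D1, -0.20 and 0.63 for B2m, and -0.54 and 1.11 for Tapbp. With 1 library a group the difference between the cell types was not tested. Without cluster 10 B2m gave 0.035 in tumour cells, within the shallow clusters 2 and 9 it gave 1.56 and 1.36, and with equal weight for each cell H2-K1 gave -0.12 in macrophages.

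Barcodes removed by the cell filter (508 in EL1 and 583 in WTg) also held class I RNA. Tap1 was higher there in WTg, on 3 and 17 UMIs (2.48 and 9.12 CPM, log2 ratio 1.88, 0.09 to 4.29), while in the tumour cells that were kept it was lower.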

How the results depend on the processing

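No paired analysis was possible because there is 1 library a group and no result comes from a test. The higher level of the 10 genes in macrophages kept its direction for every called gene under each alternative run, with 8 to 10 of 10 genes past 2-fold in EL1 and 9 to 10 in WTg. The cause of the changes below was not tested. In all kept cells the median log2 ratio of the 10 genes turned from -0.14 to 0.035 with equal weight per cell. In macrophages the count of genes past 2-fold between libraries went from 1 to 0 under the stricter cell filter, equal weight per cell, resolution 0.5 and clustering with the lists kept, with Tapbp between 0.80 and 1.22 over all alternatives, and H2-K1 turned to -0.12 with equal weight. In tumour cells that count was 1, and alternatives chosen after seeing the data gave 3 in cluster 2 only, 0 in cluster 7 only, 0 without cluster 0 and without cluster 1, and 4 in cluster 12 only (a cluster with few UMIs of most genes). H2-D1 turned to 0.17 in cluster 12 only and B2m to 0.035 without cluster 10. In cluster 2 only H2-D1 turned to 0.27, B2m to 1.56 and Tap1 to 0.34. In cluster 9 only H2-D1 turned to 0.26, B2m to 1.36, Tapbp to 0.033 and the median, over 4 genes with a ratio, to 0.15. H2-K1 in tumour cells stayed between -0.93 and 0.00 and H2-T23 between -3.59 and -0.68. With at least 50 UMIs in place of 10 the list genes past 2-fold went from 18 to 11 in tumour cells and from 28 to 13 in macrophages, fewer genes being tested. Of the 5 genes most like the 10, 1 was shared with a pseudocount of 1 and 0 over tumour groups only. Over the single genes, 206 of 283 values in tumour cells and 98 of 100 in macrophages stayed within the counting interval of the value given.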

Other observations

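An unnamed cluster of mixed stromal and epithelial markers (cluster 14) held 35 EL1 and 13 WTg cells. It entered no comparison of cell types, and of the library comparisons above only that over all kept cells. Its EL1 cells were also 1 of the 20 groups over which genes were correlated. Its cells held 1.66 UMIs of H2-K1 per B2m UMI in EL1 (1.39 to 2.00) and 0.78 in WTg (0.67 to 0.90). Psmb8 held 1.22% of its pair with Psmb5 in EL1 (0.15 to 4.34) and 35.6% in WTg (24.7 to 47.7). The cells of the libraries differed in kind there, with 9 epithelial markers at a summed 11407 CPM in EL1 against 1470 in WTg, and 7 endothelial markers at 13.5 and 6022 CPM.

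Removed barcodes gave 383 CPM of H2-K1 in EL1 and 218 CPM in WTg (-0.81), and 240 and 268 CPM of H2-D1 (0.15, -0.06 to 0.37).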
